A study of Mus musculus with 2 samples.

Results

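The genes described here are the 39 listed for the unfolded protein response and the ATF4 stress programme, taken by symbol from a written list. The list was written with earlier results of these data known. All 39 were among the 22609 gene rows of the deposited tables, and all 39 passed a filter of at least 20 reads over both libraries, which 12186 genes passed. The list holds 14 chaperones and foldases of the endoplasmic reticulum (ER), 4 genes of ER-associated degradation (ERAD), 3 stress sensors with the transcription factor gene Xbp1, 10 regulators and effectors around ATF4, and 7 genes of amino acid and single-carbon metabolism that ATF4 drives.

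The RNA came from TM4 cells, an established mouse Sertoli cell line, transfected with miR-471-5p mimic or with scramble and taken 48 h later for immunoprecipitation (IP) with an antibody to Ago2, the protein that carries miRNAs to their mRNAs. Each condition has 1 library, with 18628310 reads on genes for the mimic and 18717225 for scramble, so no difference has a replicate check and no test across genes was possible. Both conditions share the cell line, the transfection and the antibody. A higher level of an mRNA in the cells, more of it held by Ago2, and a change in the mix of cells cannot be told apart in these libraries. Of the 17 Sertoli markers in the tables, 7 passed the filter. Sox9 had 1228 reads with the mimic and 1070 with scramble, and Gata4 had 341 and 365, whereas the hormone receptor gene Fshr was at 0 in both and Amh had 5 reads in each. Among markers of other testis cells, the germ cell list summed to 129 and 144 reads, the Leydig list to 86 and 88 and the macrophage list to 110 and 62. In the peritubular myoid list, Acta2 was abundant, with 73076 and 101778 reads, while Myh11 had 6 in each library.

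Unfolded proteins in the ER are sensed by 3 membrane proteins. ATF6 is cleaved and enters the nucleus, IRE1 (gene Ern1) splices the Xbp1 mRNA, and PERK (gene Eif2ak3) phosphorylates the initiation factor eIF2. The first pair of arms raises chaperones, foldases and the ERAD machinery, which returns misfolded proteins to the cytosol for destruction. Phosphorylated eIF2 slows translation in general but favours that of Atf4, whose product raises amino acid synthesis and transport genes and, with CHOP (gene Ddit3), regulators of growth arrest and cell death. Kinases that sense amino acid shortage, haem shortage or double-stranded RNA feed into the same eIF2 step, so the ATF4 genes can move without the chaperones.

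The 2 kinds of promoter element known from these pathways, and the miRNA itself, are shown because the groups of genes below are read against them. Neither element was matched in every gene of a branch. Promoters were the RefSeq windows in GRCm38.p6 from 250 bases before to 50 bases after each gene's start, matched by symbol to 35 of the 39 genes; Hyou1, Manf, Atf6 and Slc7a5 were not matched. The element bound by ATF4 with C/EBP factors (CARE) was searched as TGATGNAA on both strands. The ER stress response element (ERSE), bound by ATF6 with NF-Y, was searched on both strands as CCAAT and CCACG with 9 bases of any kind between them. Capitals mark the match. A match is a description of the letters and not a measured site.
Nupr1, CARE, chr7:126625563-126625590, minus strand: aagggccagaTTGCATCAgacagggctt
Vldlr, CARE, chr19:27216810-27216837, plus strand: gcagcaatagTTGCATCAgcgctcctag
Trib3, CARE, chr2:152344029-152344056, minus strand: tagctcaggtTTACATCAgccgggcggg
Chac1, CARE, chr2:119351039-119351066, plus strand: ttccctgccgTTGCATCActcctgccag
Herpud1, CARE, chr8:94386307-94386334, plus strand: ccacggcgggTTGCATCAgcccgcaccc
Asns, CARE, chr6:7693215-7693242, minus strand: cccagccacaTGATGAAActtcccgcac
Hspa5, ERSE, chr2:34772020-34772048, plus strand: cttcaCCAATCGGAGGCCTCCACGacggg
Calr, ERSE, chr8:84847070-84847098, minus strand: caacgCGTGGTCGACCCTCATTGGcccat
Canx, ERSE, chr11:50325795-50325823, minus strand: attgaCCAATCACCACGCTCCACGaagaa
Dnajc3, ERSE, chr14:118937822-118937850, plus strand: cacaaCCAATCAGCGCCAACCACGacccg

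The mature miR-471-5p, transfected as the mimic, is shown with its seed, bases 2 to 8, in capitals. RefSeq places it on chrX:66792634-66792655, minus strand, in GRCm38.p6. An mRNA pairs with the whole seed through the bases ACTACGT.
miR-471-5p: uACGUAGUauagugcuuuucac

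Grouped as above, the stress genes held a part that differed little between the libraries and a part that was higher in the mimic library. The groups were set with earlier results of these data known, and the counts and medians by group depend on where they were divided. No chaperone, foldase or ERAD gene was 1.5-fold apart between the libraries, and their median log2 ratio of mimic to scramble was 0.022 (18 genes). In contrast, 6 of the 10 regulators and effectors around ATF4 were at least 1.5-fold higher with the mimic, led by Ddit4, Ddit3 and Nupr1, and their median log2 ratio was 0.85. The 7 metabolic genes of the same programme had a median of -0.13, and none was 1.5-fold apart. Of all 39 genes, 6 were at least 1.5-fold higher, against 11.7% of all tested genes, and 1 was at least 1.5-fold lower, against 8.94%. At 2-fold the counts were 4 higher, against 3.96% of all tested genes, and 1 lower, against 2.95%. The log2 ratio of all tested genes had a median of -0.00063 and an SD of 0.58. Each ratio below is given with its 95% exact Clopper-Pearson interval, which covers counting error only and not the spread between cultures.

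**Figure D1:**
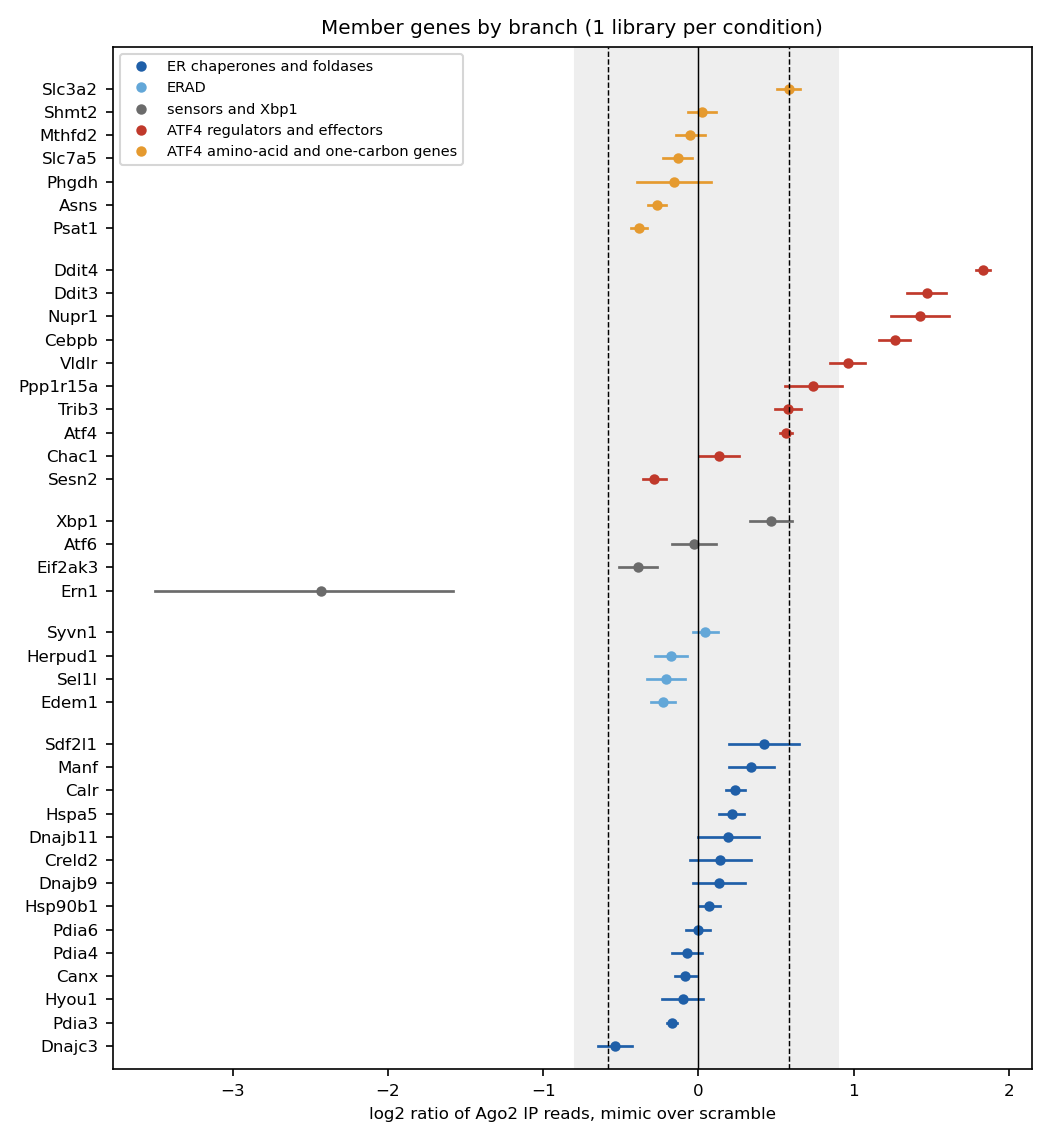
Log2 ratio of mimic to scramble reads for each of the 39 genes, grouped by branch, with bars for the 95% Clopper-Pearson interval (counting error only, 1 library per condition). The grey band runs from the 5th to the 95th percentile of all tested genes (-0.79 to 0.90), dashed lines mark 1.5-fold, and the 6 genes to the right of the higher line all belong to the regulators and effectors around ATF4.

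The chaperones and foldases kept close levels in the 2 libraries. Hspa5 encodes BiP, the ER chaperone that holds the sensors silent until unfolded proteins draw it away, and it is a standard readout of the unfolded protein response. It had 2779 reads with the mimic and 2395 with scramble, a log2 ratio of 0.21 (interval 0.13 to 0.29) or 1.16-fold. Pdia3, a protein disulfide isomerase that works on glycoproteins, was the most abundant of the 39 genes in the scramble library by reads, with 14391 with the mimic and 16200 with scramble and a log2 ratio of -0.17. Its lectin partners Calr and Canx lay on either side of 0, at 0.24 (4459 and 3777 reads) and -0.083 (3254 and 3446 reads). Hsp90b1, the ER form of the HSP90 chaperone, had 3577 and 3406 reads and a log2 ratio of 0.070.

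Across the 14 chaperones and foldases, 8 ratios were above 0 and 6 below, from -0.54 to 0.42. The small ER proteins Sdf2l1 and Manf were the highest, Sdf2l1 with 379 and 283 reads and a log2 ratio of 0.42 (interval 0.19 to 0.65), and Manf with 882 and 697 reads and a ratio of 0.34 (interval 0.19 to 0.48). Dnajc3, a co-chaperone that also inhibits eIF2 kinases, was the lowest, with 1139 reads with the mimic and 1650 with scramble, a log2 ratio of -0.54 (interval -0.65 to -0.43) or 1.45-fold lower. The interval was above 0 for 5 of the 14 genes, below 0 for 3 and spanned 0 for 6, which were the BiP helpers Dnajb9 and Dnajb11, the foldases Pdia4 and Pdia6, the chaperone Hyou1 and the stress-induced Creld2. The whole group summed to 37778 reads with the mimic and 38780 with scramble.

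The 4 ERAD genes lay close together. Edem1, which marks misfolded glycoproteins for removal, had 2486 and 2911 reads in the mimic and scramble libraries, a log2 ratio of -0.23 (interval -0.31 to -0.15). Sel1l, the scaffold of the ubiquitin ligase complex, had 1051 and 1215 reads and a ratio of -0.21, and Herpud1, an early stress-induced part of the complex, had 1465 and 1654 reads and a ratio of -0.18. Syvn1, the ligase itself, had 2704 and 2619 reads and a ratio of 0.045 (interval -0.033 to 0.12). The intervals of Edem1, Sel1l and Herpud1 were below 0, and all 4 genes were within 1.5-fold.

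The sensors did not move together. Ern1, which encodes IRE1, had 12 reads with the mimic and 67 with scramble, a log2 ratio of -2.43 (interval -3.50 to -1.58) or 5.40-fold lower, at the 0.156 percentile of all tested genes. It was the only one of the 39 genes more than 1.5-fold lower, and also the one with the fewest reads, at 0.643 CPM (reads scaled to library size) with the mimic and 3.59 CPM with scramble. Xbp1, the target of IRE1, went the other way, with 1025 and 741 reads and a log2 ratio of 0.47 (interval 0.33 to 0.61). Reads counted per gene do not separate spliced from unspliced Xbp1. Eif2ak3, which encodes PERK, had 934 and 1223 reads and a ratio of -0.39 (interval -0.51 to -0.27). Atf6 had 813 and 830 reads, and its ratio of -0.030 had an interval from -0.17 to 0.11. With 4 genes the median of -0.21 depends on which are kept. It was -0.020 when Ern1 was dropped by a filter of at least 200 reads and 0.025 after a regression on transcript length and GC content.

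**Figure D2:**
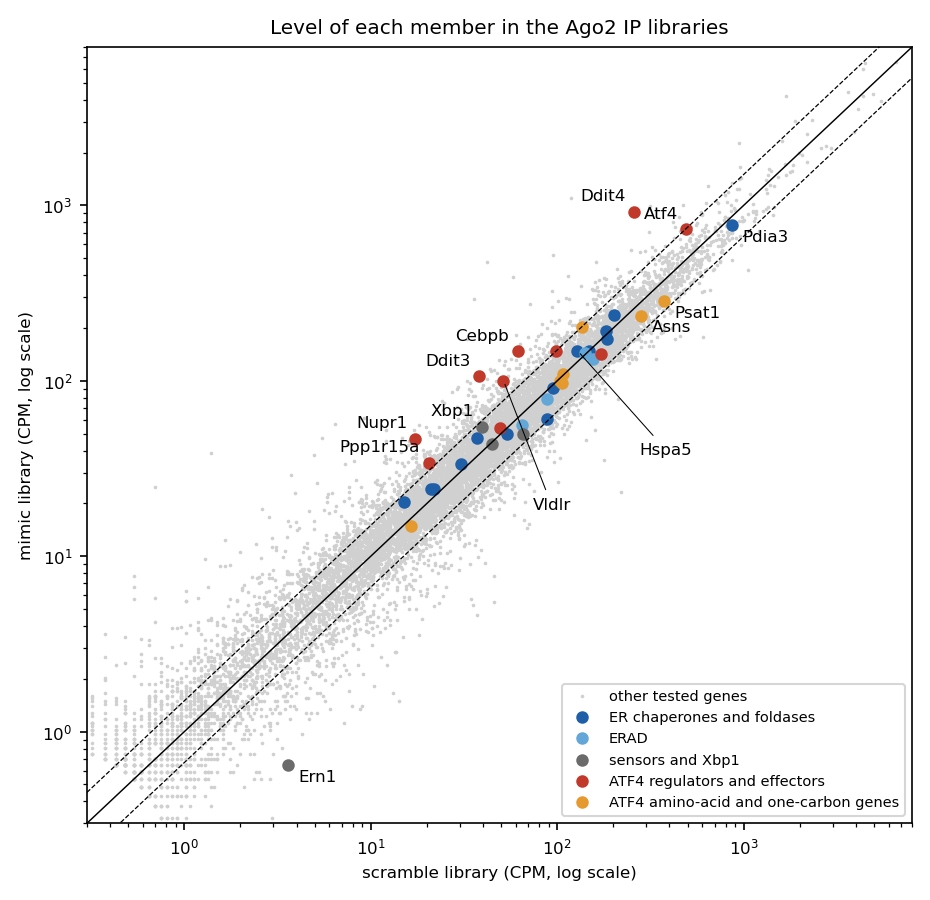
CPM in the mimic library against CPM in the scramble library (both log scales) for the 39 genes in colour and the other tested genes with reads in both libraries in grey. The solid line marks equal levels and the dashed lines 1.5-fold, and Ddit4, Ddit3, Nupr1, Cebpb, Vldlr and Ppp1r15a lie above the upper dashed line while Ern1 lies below the lower one.

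The regulators and effectors around ATF4 made up the group with the large differences. Ddit4 (REDD1, an inhibitor of mTORC1 signalling) had 17231 reads with the mimic and 4831 with scramble, a log2 ratio of 1.83 (interval 1.79 to 1.88) or 3.56-fold. It was at the 99.1 percentile of all tested genes and was the most abundant of the 39 genes by reads in the mimic library. On a scale of CPM per kilobase of transcript its level was 526 against 424 for Atf4 in the mimic library, but 147 against 286 in the scramble library. Ddit3, which encodes the cell death factor CHOP, had 1983 and 715 reads and a log2 ratio of 1.47 (interval 1.35 to 1.60) or 2.77-fold. Nupr1, a small stress-induced chromatin protein, had 872 and 324 reads and a ratio of 1.43 (interval 1.24 to 1.62).

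Cebpb, a C/EBP transcription factor that pairs with ATF4, had 2757 reads with the mimic and 1146 with scramble, a log2 ratio of 1.27 (interval 1.17 to 1.37) or 2.40-fold. In GRCm38, 20.7% of its exonic bases are overlapped by exons of Tmem189 on the other strand. The strand setting of the counting is not given in the sources used here, and Tmem189 itself had 409 and 364 reads, a ratio of 0.17. Vldlr, a lipoprotein receptor raised by ATF4, had 1874 and 961 reads and a ratio of 0.96 (interval 0.85 to 1.08). Ppp1r15a encodes GADD34, which brings a phosphatase to eIF2 and so ends the block on translation. It had 637 and 381 reads and a ratio of 0.74 (interval 0.56 to 0.93).

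Atf4 and the pseudokinase gene Trib3, a target of ATF4 and CHOP, came just short of 1.5-fold. Atf4 had 13650 reads with the mimic and 9211 with scramble, a log2 ratio of 0.57 (interval 0.53 to 0.61) or 1.48-fold, and Trib3 had 2762 and 1850, a ratio of 0.58 or 1.49-fold. Both intervals were above 0. Chac1 and Sesn2, also known as ATF4 targets, differed less. Chac1, which degrades glutathione, had 1009 and 921 reads and a ratio of 0.13 (interval 0.00072 to 0.26). Sesn2, an inhibitor of mTORC1 signalling like Ddit4, was lower in the mimic library, with 2649 and 3223 reads and a ratio of -0.28 (interval -0.36 to -0.21). Thus Ddit4 and Sesn2 lay on opposite sides of 0.

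The amino acid and single-carbon genes were flat or slightly lower with 1 exception. Asns, asparagine synthetase and the classic readout of the ATF4 response to amino acid shortage, had 4387 reads with the mimic and 5269 with scramble, a log2 ratio of -0.26 (interval -0.32 to -0.21). Psat1, of the serine synthesis pathway, had 5318 and 6944 reads and a ratio of -0.39 (interval -0.44 to -0.33), and Phgdh, the entry enzyme of that pathway, had 276 and 308 reads and a ratio of -0.16 with an interval that spanned 0. The mitochondrial folate enzymes Shmt2 and Mthfd2 were at 0.024 and -0.053, both with intervals that spanned 0. The exception was Slc3a2, the heavy chain of the leucine transporter, with 3803 and 2539 reads and a ratio of 0.58 (interval 0.51 to 0.66) or 1.497-fold, just under the threshold. Its light chain partner Slc7a5 had 1813 and 1989 reads and a ratio of -0.13 (interval -0.23 to -0.042). The chains of this transporter therefore differed in direction.

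The median of the whole ATF4 programme of 17 genes was 0.57, but the genes fell into a high and a flat part, so the median rests on few genes between them. Without Ddit4 and Atf4, the pair with the most reads, it was 0.13, and 5 of the remaining 15 genes were still at least 1.5-fold higher. The median of the regulators and effectors alone was 0.85 with that pair and 0.85 without it. It could not change, because Ddit4 (1.83) lay above it and Atf4 (0.57) below it. Set against each other within a library, which needs no scaling between libraries, the regulators and effectors had 99.9 reads for every 100 reads on chaperone, foldase and ERAD genes in the mimic library (interval 98.6 to 101) and 49.9 in the scramble library (interval 49.2 to 50.7). Without Ddit4 and Atf4 the values were 32.0 and 20.2. The metabolic genes had 42.9 and 44.5 reads on the same basis.

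Transcript length moved with the ratios and differed between the branches. Over 11772 tested genes with a coding transcript in GENCODE M21 (GRCm38), the median log2 ratio went from 0.44 in the shortest of 10 length bins to -0.25 in the longest. Regulators and effectors around ATF4 had a median transcript length of 1740 bases, against 2289 for the metabolic genes, 2487 for the chaperones and foldases and 4641 for ERAD genes. Nupr1 and Ddit3, at 829 and 890 bases, were in the shortest bin, where 32.9% of genes were at least 1.5-fold higher, and they lay at the 95.6 and 95.9 percentiles of that bin. Vldlr, with 7971 bases, was in the longest bin and lay at its 98.7 percentile. After the regression on length and GC content the ratios of the 6 higher genes were 1.61 for Ddit4, 1.31 for Vldlr, 1.01 for Ddit3, 0.94 for Nupr1, 0.84 for Cebpb and 0.70 for Ppp1r15a. All 6 remained past 1.5-fold, where 9.35% of genes were, and the median of their group was 0.77. The same regression took Ern1 to -2.16, Atf4 to 0.38 and the whole ATF4 programme to a median of 0.38. The slightly negative ERAD median of -0.19 went to 0.042. Hspa5 went from 0.21 to 0.34, still within 1.5-fold, while the median of the chaperones and foldases went from 0.10 to 0.071.

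**Figure D3:**
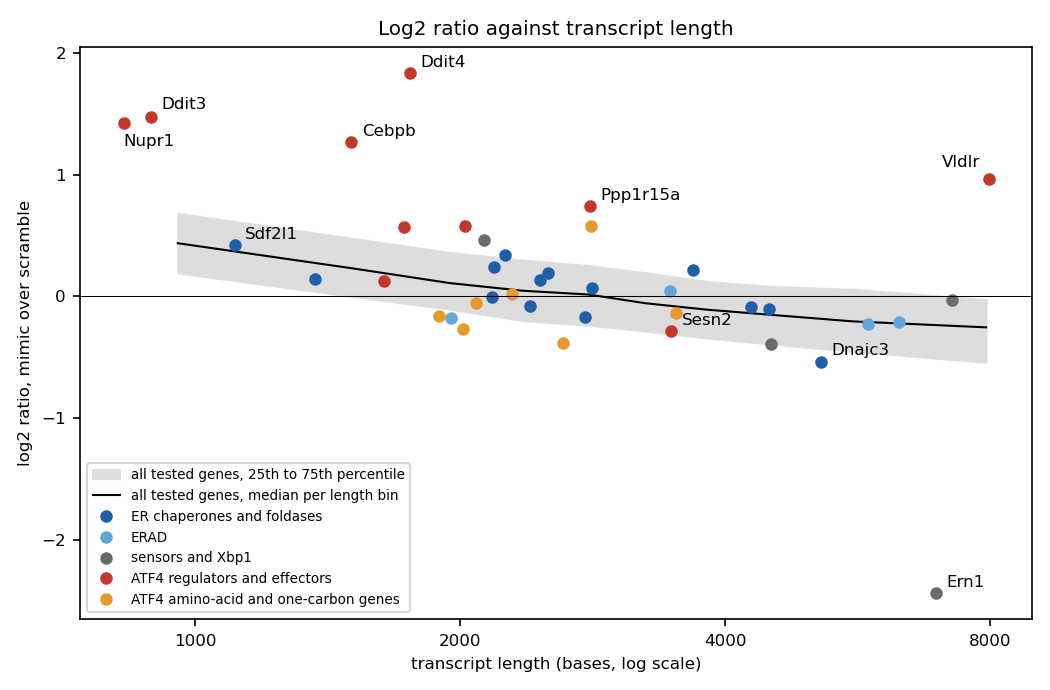
Log2 ratio of mimic to scramble against transcript length (log scale) for the 39 genes in colour. The black line joins the medians of all tested genes in 10 length bins, from 0.44 to -0.25, and the grey band spans the 25th to 75th percentile in each bin; Ddit4, Vldlr and Ern1 lie far from the band while most chaperones lie in it.

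Read against the promoter elements shown above, the genes of the list with an ERSE match were all within 1.5-fold. Of the 12186 tested genes, 9677 were also within 1.5-fold. Pdia3 and Pdia4, whose promoters held no match, were within 1.5-fold too. An ERSE match was found in 8 of the 35 promoters, those of Hspa5, Hsp90b1, Pdia6, Calr, Canx, Dnajc3, Creld2 and Syvn1, whereas 17 of the 9663 tested genes with a promoter held one (0.176%). The log2 ratios of these 8 genes ran from -0.54 to 0.24 with a median of 0.058. Over all 17 tested genes with an ERSE match they ran from -0.82 to 0.46 with a median of 0.045. Herpud1 and Dnajb11 held the second form of the element, ATTGG and CCACG with 1 base between them, which 0.0828% of promoters held. The genes with a CARE match spread more widely. They were 6 of 35 against 2.71% of all promoters, with ratios of 1.43 in Nupr1, 0.96 in Vldlr, 0.58 in Trib3, 0.13 in Chac1, -0.18 in Herpud1 and -0.26 in Asns. Over all 262 tested genes with a CARE match the median ratio was -0.031. The windows of Ddit4, Ddit3, Cebpb and Ppp1r15a held no CARE match, and the core TGACGTGG bound by XBP1 and ATF6 was in none of the 35, against 1.03% of all promoters. Bases outside the windows were not searched, so an element further upstream would be missed.

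Start codons upstream of the coding region, a feature that lets Atf4 and Ppp1r15a escape the block on translation, were found in some of the higher genes and not in others. The annotated 5′ leader held at least 1 such ATG in 5 of the 10 regulators and effectors, with 7 in Ppp1r15a, 3 in Atf4, 2 in Ddit3 and 1 each in Nupr1 and Sesn2. Ddit4, Cebpb, Vldlr, Trib3 and Chac1 had none. Over all tested genes with a transcript, 50.1% had at least 1.

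The 6 genes at least 1.5-fold higher had no match to the miR-471-5p seed in the coding region or 3′ UTR. The match to the whole seed occurred in the longest 3′ UTR of 1 of the 39 genes, Edem1, against 1.55% of the tested genes with a transcript, and in the coding region of 1, Psat1, against 4.34%. The Edem1 match is followed by A. Ern1 carried a match to bases 2 to 7 of the miRNA in its 3′ UTR, as 6.76% of genes carried at least this shorter match there. Neither of the genes with a match to the whole seed had more reads in the mimic library, with ratios of -0.23 for Edem1 and -0.39 for Psat1. After the regression on length and GC content these ratios were 0.028 for Edem1 and -0.38 for Psat1. The shorter match alone also lay in the coding regions of Hsp90b1, Calr, Edem1, Psat1, Trib3 and Ern1, so that Ern1 held it in both regions. The share of all tested genes with the shorter match in the coding region was not computed. Trib3, at a ratio of 0.58, was the only one of the 10 regulators and effectors with a match, and the 3′ UTRs of all 10 held none. The sites are shown with the match in capitals, as mRNA-sense DNA in GRCm38.
Edem1, 3′ UTR, chr6:108858097-108858123, plus strand: aaagttgcaaACTACGTagcaggctgt
Psat1, coding region, chr19:15918288-15918314, minus strand: aggagtgctgACTACGTggtgaccgga
Ern1, 3′ UTR, chr11:106397518-106397543, minus strand: ttgcagaaagCTACGTttgcataaat

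Other genes of the same pathways, in 7 lists of 151 genes, were mostly near 0. Of the 144 that passed the filter, 15 were at least 1.5-fold higher and 3 at least 1.5-fold lower, with a median of 0.035. Over all tested genes the shares were 11.7% higher and 8.94% lower, and the counts of each list below are to be read beside these. Among 30 other ER folding enzymes, 4 were higher and 1 lower. Cnpy2, an ER-resident saposin-like protein, had 9758 reads with the mimic and 1783 with scramble, a log2 ratio of 2.45 (interval 2.38 to 2.53), and Ero1l, the oxidase that recharges the disulfide isomerases, had 1684 and 543 reads and a ratio of 1.63 (interval 1.49 to 1.77). Fkbp14 was the lowest of them at -0.92. Of 20 other ERAD genes, 2 were higher, Selk at 0.68 and Sec61b at 0.70, and none lower. Of 21 translocation genes, 2 were higher, among them Srp14 at 0.80. The Srp14 transcript lies with the short ones, and after the regression its ratio was 0.36 and that of Sec61b -0.10.

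Upstream of ATF4, 2 of 15 genes for eIF2, its kinases and its exchange factor were higher, the subunit genes Eif2s2 at 0.60 and Eif2b2 at 0.80. Gcn1l1, the activator of the amino acid sensing kinase, was lowest at -0.52. The kinase genes themselves were within 1.5-fold, with Eif2ak2, which encodes the kinase for double-stranded RNA, at 0.31 (943 and 761 reads), a gene named after its values were seen. Among 27 other ATF4 targets, 5 were higher and 1 lower. The higher ones were Stc2 at 1.81 (68 and 19 reads), Atf3 at 0.80 (169 and 97 reads), Nfil3 at 0.71, Eif4ebp1 at 0.69 and Mthfd1l. Mthfd1l, a mitochondrial folate enzyme like Shmt2 and Mthfd2, had 3989 and 2537 reads and a ratio of 0.65. The lower one was Pycr1, of proline synthesis, at -0.96 (417 and 810 reads). Of 8 other sensors and site proteases, none was higher and Creb3l2 was lower at -1.04. The 23 cytosolic aminoacyl-tRNA synthetase and partner genes, a further set that ATF4 drives, had a median of -0.10 and ran from -0.57 in Lars to 0.48 in Aimp2, with none past 1.5-fold. Like the amino acid genes of the list, they had small ratios of both signs.

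**Figure D4:**
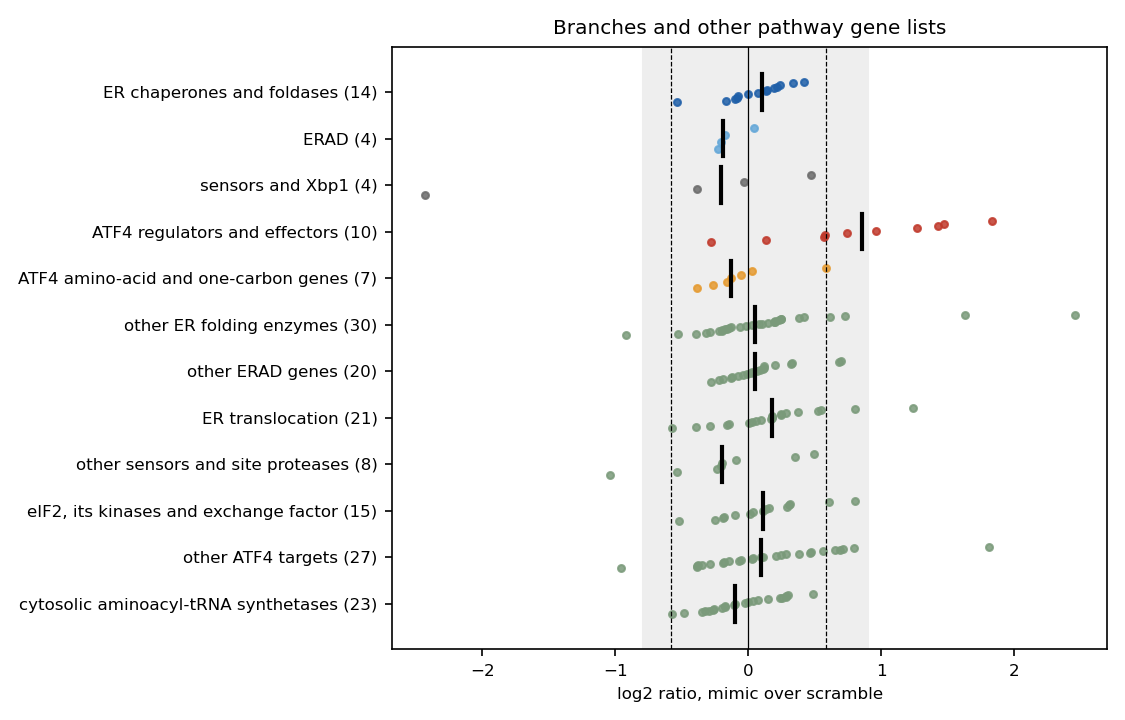
Log2 ratio of mimic to scramble for the genes of the 5 branches (coloured) and of the 7 other pathway lists (green), with the number of genes in brackets and a black bar at each median. The grey band runs from the 5th to the 95th percentile of all tested genes and dashed lines mark 1.5-fold; the regulators and effectors around ATF4, with a median of 0.85, are the only branch whose median is past the higher line.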

How the data were processed

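Both Ago2 IP libraries came from TM4 cells, 1 per condition. For each library the authors deposited a table of unnormalized counts by gene symbol. Its 5 summary rows, for entries not assigned to a gene, stayed out of library sizes, which left 52.7% of entries with the mimic and 55.9% with scramble. The submitters' processing notes name CASAVA 1.8.2, TopHat2 2.0.8b, HTSeq and build mm9; annotation, strand setting and parameters are not given in the sources used here. Reads aligned to several places were not assigned, which lowers the count of any gene with a near-identical copy.

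From these counts, log2 ratios were computed with a prior count of 0.5 per library and TMM factors from edgeR 4.0.16 (R 4.3.3), for genes with at least 20 reads over both libraries. Because neither condition has a second library, no count model was fitted, and a fold of 1.5 or 2 was used as a description. Intervals are exact Clopper-Pearson (95%, counting error only), from the mimic share of a gene's reads. At these depths 3 reads correspond to 0.161 CPM with the mimic and 0.16 CPM with scramble. Per-length levels used the GENCODE M21 transcript with the longest coding region, and symbols were matched through RefSeq synonyms where needed. The regression used linear and quadratic terms in log2 transcript length and in GC content, and explained 15.6% of the variance. The ratio and interval code was tested on counts drawn with known fold changes. Python 3.11.15, numpy 2.4.6, scipy 1.17.1 and pandas 2.3.3 were used.

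The genes and lists were chosen with earlier results of these data known. Of the list, genes past 1.5-fold, the 3 with the most reads of each branch and those that define a branch were described in full, and the rest of the list more briefly. Of the other lists, up to 2 genes at each end with at least 100 reads were named, and further genes where they help the reader. Vimp and Rhox5 are not analysed here. The alternatives were DESeq2 1.42.0 size factors, total counts, centring on the median, no filter, at least 200 reads, a prior count of 5, a 2-fold threshold, the regression and, added after the data had been seen, leaving out Ddit4 and Atf4.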

Additional observations from a re-analysis of the deposited data

Results flagged for a closer look

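The share of entries aligned to more than one place, which enters no ratio above, was 39.8% with the mimic and 35.6% with scramble; it was singled out because these entries lie outside the gene counts and their share was higher with the mimic, and which of the stress genes they would add to was not tested.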

How the results depend on the processing

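With DESeq2 size factors, total counts, centring, no filter or a prior count of 5, the 3 branch medians and both counts of genes past 1.5-fold stayed close to the values above, and no gene past 1.5-fold changed sign in any setting run. These scalings lay so near TMM that little could change. With total counts, Slc3a2 passed 1.5-fold (log2 ratio 0.59), and with at least 200 reads Slc3a2 and Trib3 both did (0.59 and 0.59), giving 8 higher genes in place of 6. That filter also removed Ern1, which left 0 lower genes and a sensor median of -0.020. The length and GC regression gave 0.025 for the sensors and 0.38 for the ATF4 programme, and leaving out Ddit4 and Atf4 gave 0.13 for the latter. The regression also changed the sign of several genes within 1.5-fold. Among them were Edem1 (-0.23 to 0.028), Sel1l (-0.21 to 0.062), Atf6 (-0.030 to 0.29) and Chac1 (0.13 to -0.11). With 1 library per condition the spread between cultures is unknown. The depth limits Ern1 most, with 12 reads in the mimic library. No paired analysis was possible because each condition has 1 library.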

Other observations

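Ddit4, Vldlr and Ero1l are also known as targets of the hypoxia-inducible factor (HIF). A list of 22 other known HIF targets was therefore written after these values had been seen, and it is given as a description only. Of the 21 that passed the filter, 12 were at least 1.5-fold higher in the mimic library and 0 lower, against 11.7% and 8.94% of all tested genes, and the median log2 ratio was 0.76. The highest were the ankyrin repeat gene Ankrd37, with 984 reads with the mimic and 224 with scramble and a log2 ratio of 2.13 (95% interval 1.92 to 2.35), the mitochondrial Higd1a, with 649 and 152 reads and a ratio of 2.09, and hexokinase Hk2, with 846 and 225 reads and a ratio of 1.91. Egln1, the oxygen-sensing hydroxylase, had 8936 and 3019 reads and a ratio of 1.56, and the mitophagy receptor Bnip3 had 5490 and 2162 and a ratio of 1.34. The glucose transporter Slc2a1 was at 1.31. Vegfa was at 0.54, Ldha at 0.23, Adm at -0.15 and Pfkfb4 at -0.50. After the length and GC regression the median was 0.83, and 13 of the genes were at least 1.5-fold higher.

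A list of genes with a Cebp symbol was also written after the values had been seen. Of the 5 that passed the filter, Cebpb was the only one past 1.5-fold. Ddit3, at 1.47, was not in this list. Cebpd had 5315 reads with the mimic and 3968 with scramble and a log2 ratio of 0.42, Cebpa was at 0.26 with an interval that spanned 0, Cebpg was at 0.11 and Cebpz at -0.37.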
